A study of Saccharomyces cerevisiae with 18 samples.

Results

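Budding yeast (Saccharomyces cerevisiae) carrying both a deletion of HMO1 and the top2-1 allele of TOP2 was compared by RNA sequencing with wild type, and with what the 2 single mutants would give if their effects on each transcript simply added up. The 4 libraries used were hmo1Δ;top2-1, hmo1Δ, top2-1 and wild type, 1 library each. All came from log-phase cultures shifted from 28 to 37 °C and collected 60 min later, wild type included, so every ratio is between heated cultures. The labels used here give no strain background, clone or library batch. Of 7126 features in the RNA files, 5919 had a mean of at least 20 expected counts over these 4 libraries and make up the genes described here. The series holds 18 samples in all, the others being a wild-type RNA library from 28 °C and chromatin experiments. Of the latter only the Hmo1 peak lists, labelled 37 °C, and the Top2 interaction list, labelled 28 °C, are used here. The main Hmo1 list has the genotype label Hmo1tag with a control plasmid. The other, called the TopA list, is labelled Hmo1tag;top2-1;top1Δ with E. coli TopA expressed from a plasmid.

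Hmo1 is an abundant HMG-box protein that bends and bridges DNA, and it is known for its place on ribosomal DNA and on promoters of ribosomal protein genes. Top2 is the type II topoisomerase that removes supercoils and untangles sister chromatids, and top2-1 is a temperature-sensitive allele of it whose cells still hold Top1, the other enzyme able to relax supercoils. In a double mutant, 2 changes that act on a transcript independently would multiply, so that their log2 ratios add. The departure from additivity used here takes the log2 ratio of hmo1Δ;top2-1 over wild type and subtracts from it the log2 ratios of both single mutants over wild type. A negative value means a lower transcript level in the double mutant than that sum, and a positive value a higher one. The same number is the effect of hmo1Δ in top2-1 cells minus its effect in wild-type cells, and also the effect of top2-1 in hmo1Δ cells minus its effect in wild-type cells.

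The libraries held 9274003 expected counts in hmo1Δ;top2-1, 7096283 in hmo1Δ, 5591118 in top2-1 and 4752471 in wild type. Levels are given as CPM, counts scaled to library size with TMM factors, and a log2 ratio of at least 1 in size is described as 2-fold, a rule of size and not a test. With 1 library per group there is no replicate error and no p-value. Bracketed ranges are 95% intervals for counting error alone, and PCR copies of a molecule count as separate reads. What belongs to a genotype and what belongs to a single culture or library cannot be told apart, and fewer cells of a kind and less RNA per cell cannot be told apart either. The hmo1Δ library enters the departure with a minus sign and wild type with a plus sign, so anything peculiar to 1 of them appears as a departure too; its part in the results was not tested.

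The deleted gene matched the labels. HMO1 (YDR174W, chromosome IV, bases 812110 to 812850, R64 build) had 0 counts in hmo1Δ;top2-1 and 0 in hmo1Δ, against 222 CPM in top2-1 and 232 CPM in wild type, at least 723-fold lower in the double mutant than in wild type on a floor of 3 counts per library. TRP1, a tryptophan synthesis gene often used as a strain marker, also had 0 counts in both hmo1Δ strains, against 34.1 CPM in top2-1 and 30.7 CPM in wild type. The hmo1Δ strains therefore differed from the others at TRP1 as well, and the 2 differences cannot be told apart. The top2-1 allele leaves its transcript in place: TOP2 had 157 CPM in hmo1Δ;top2-1, 118 in hmo1Δ, 156 in top2-1 and 179 in wild type. TOP1 had 160.5 CPM in hmo1Δ;top2-1, 121 in hmo1Δ, 209.8 in top2-1 and 174 in wild type. Markers of both mating types had counts in every library. Of the a-cell genes, STE2 and STE6 had between 618 and 1616 counts in each library, BAR1 101 to 453 and MFA2 48 to 126, while MFA1 had only 3 to 10. Of the α-cell genes, SAG1 had 170 to 305 counts in each library, STE3 26 to 67 and MF(ALPHA)2 29 to 53, and MF(ALPHA)1 had 3 to 6.

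Ratios over wild type were less spread in the double mutant than in the sum of the single mutants. Over the 5919 features the log2 ratio of hmo1Δ;top2-1 over wild type had an SD of 0.62, against 0.92 for the sum of the single mutants, 0.76 for hmo1Δ and 0.37 for top2-1. The sum carries the error of both single-mutant libraries, and wild type enters both of its ratios, which widens it even under additivity. How much of the difference in SD this makes was not tested. At least 2-fold over wild type, 243 features (4.11%) were higher and 193 (3.26%) lower in hmo1Δ;top2-1. The same counts were 414 (6.99%) and 303 (5.12%) in hmo1Δ, and 69 (1.17%) and 35 (0.591%) in top2-1. Of the 243 features higher in the double mutant, 179 were also 2-fold higher in hmo1Δ and 32 in top2-1, and 57 were 2-fold in neither single mutant. With deposited TPM values in place of scaled counts, 33.9% of the 2-fold features were higher rather than the 55.7% found here, and 49.1% with library totals.

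The departure was at +1 or more for 125 features (2.11%) and at -1 or less for 241 (4.07%), and its median over all features was 0.01. Its counting interval lay wholly above 0 for 120 of the 125 (2.03% of all features) and wholly below 0 for 236 of the 241 (3.99%). Among the 5141 nuclear coding genes averaging at least 100 counts, 42 (0.817%) stood at +1 or more and 160 (3.11%) at -1 or less. The balance of positive and negative departures depended on scaling: 34.2% of the features past 1 in size were positive here, 52.4% with library totals and 53.2% with TPM. Those scalings moved the median of all features to 0.16 and 0.18, so list values below are also read relative to it.

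On both sides of 0 the double mutant stood nearer wild type than the sum did. Among features with counts in every library, the 59 with a sum of 3 or more had a median of 1.86 in hmo1Δ;top2-1, against a median sum of 3.60, and 56 of them (94.9%) had a departure of -1 or less. The 96 with a sum from 2 to 3 had a median of 1.23 in the double mutant, and 59 of them (61.5%) were at -1 or less. On the other side, the 49 with a sum from -3 to -2 had a median of -1.27 in the double mutant against a median sum of -2.40, and 26 of them (53.1%) were at +1 or more. The sum is itself a term of the departure, so error in the single-mutant and wild-type libraries alone moves the 2 in opposite directions, and these shares are a description only. They are the background against which the gene groups below are to be read.

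**Figure D1:**
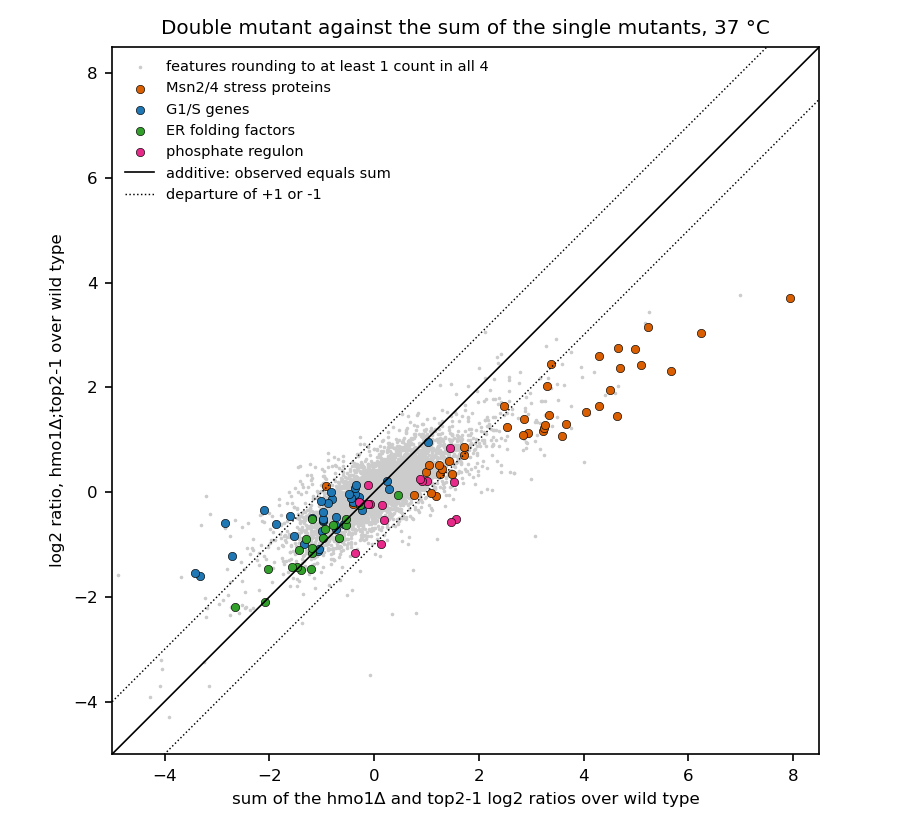
The observed log2 ratio of hmo1Δ;top2-1 over wild type (vertical axis) is plotted against the sum of the hmo1Δ and top2-1 log2 ratios over wild type (horizontal axis), 1 point per feature whose estimate rounds to at least 1 count in all 4 libraries, with 4 gene lists in colour. The solid line marks additivity and the dotted lines a departure of +1 or -1; most Msn2/4 stress proteins lie below the lower dotted line, and the ER folding factors lie along the solid one.

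The coding genes past 1 in size were picked on the same 4 levels, so the order of the strains among them is a description only. A low departure favours high levels in the single mutants and low levels in wild type and the double mutant, and a high departure the reverse. No share over all coding genes is set beside these counts. Of the 160 coding genes at -1 or less, 144 had their highest level in hmo1Δ and 130 their lowest in wild type, and in 137 the double mutant stood between these. It was lower than hmo1Δ in 157 of the 160, although 144 of them were higher than wild type in both single mutants. Of the 42 coding genes at +1 or more, 32 had their lowest level in hmo1Δ, 34 were lower than wild type in both single mutants, and the double mutant was higher than hmo1Δ in 40. It was the highest of the 4 strains in 17 of these 42 and below wild type in 24.

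The stress genes of the Msn2 and Msn4 transcription factors made up the group with the most negative departure. Msn2 and Msn4 bind stress response elements and turn on genes for chaperones, antioxidant enzymes and storage sugars when cells are heated, starved or oxidised. Of 40 genes on this list, 28 had a departure of -1 or less, 1 was at +1 or more, and the median was -1.72, against 0.01 for all features and 4.07% of features at -1 or less. The median log2 ratio over wild type was 1.26 in hmo1Δ;top2-1, 2.49 in hmo1Δ and 0.50 in top2-1. Thus 33 of the 40 were higher in top2-1 than in wild type, but 39 of the 40 were lower in hmo1Δ;top2-1 than in hmo1Δ, with a median of -1.13 for that ratio.

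SPG4, a gene of stationary-phase survival (YMR107W, chromosome XIII, bases 483014 to 483361), had the lowest departure of any coding gene with at least 100 counts. It had 64.3 CPM in hmo1Δ;top2-1, 202 in hmo1Δ, 29.3 in top2-1 and 4.64 in wild type, a departure of -4.23 (-4.85 to -3.60). DDR2, a small protein of the response to many stresses, had 200.3 CPM in hmo1Δ;top2-1, 476 in hmo1Δ, 94.8 in top2-1 and 24.2 in wild type, a departure of -3.21 (-3.50 to -2.91). In both genes each single mutant was more than 3-fold above wild type, and the double mutant lay between the single mutants and not above them. HSP12, which encodes a membrane-stabilising heat shock protein, had 5583 CPM in hmo1Δ;top2-1, 10542 in hmo1Δ, 2875 in top2-1 and 1079 in wild type, a departure of -2.33. HSP26, the small heat shock chaperone, had 2653 CPM in hmo1Δ;top2-1, 6750.3 in hmo1Δ, 1230.4 in top2-1 and 492 in wild type, a departure of -2.67 (-2.74 to -2.60). The order hmo1Δ, double mutant, top2-1, wild type, from high to low, was shared by 28 of the 40 genes.

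Some members of the list with the same order of strains had a top2-1 level closer to wild type than SPG4 and DDR2 had. GRE1, a hydrophilin of desiccation tolerance, had 46.2 CPM in hmo1Δ;top2-1, 326 in hmo1Δ, 13.4 in top2-1 and 9.07 in wild type, a departure of -3.36 (-3.90 to -2.82). CTT1, the cytosolic catalase, had 128 CPM in hmo1Δ;top2-1, 423 in hmo1Δ, 51 in top2-1 and 46.2 in wild type. For CTT1 the top2-1 and wild-type levels were close, so its departure of -1.86 was almost wholly the lower level in the double mutant than in hmo1Δ (-1.72). Other members with a departure below -2.5 were TKL2 (the minor transketolase, -3.18), GND2 (the minor 6-phosphogluconate dehydrogenase, -2.66), MSC1 (-2.54), ALD3 (an aldehyde dehydrogenase, -2.52) and SIP18 (a hydrophilin, -2.52), the last with a mean of only 32 counts. The exceptions were RCK1, a protein kinase gene with 10.5 CPM in hmo1Δ;top2-1 and 9.67 CPM in wild type, and MSC6, whose 4 levels ran from 94.6 to 110.1 CPM. Genes off the list with as negative a departure included YDL199C, of the sugar transporter family (-3.42), SRX1, the sulfiredoxin (-2.71), HBT1, a protein of polarised growth (-2.61), RGI1, a gene of respiratory growth (-2.54), URA10, the minor orotate phosphoribosyltransferase (-2.53), and YNL195C (-2.74).

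**Figure D2:**
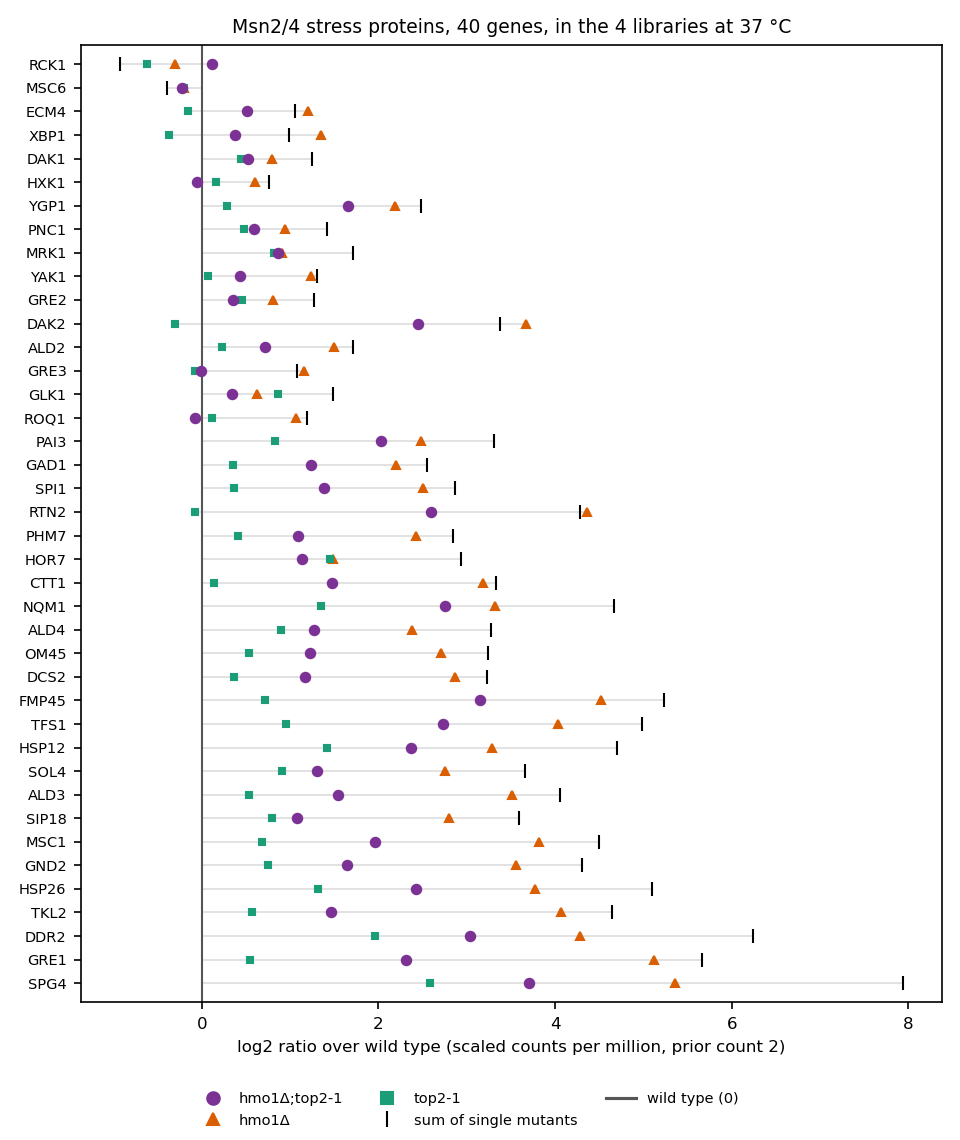
Each row is 1 of the 40 Msn2/4 stress genes, and the horizontal axis is the log2 ratio over wild type for hmo1Δ;top2-1 (circle), hmo1Δ (triangle) and top2-1 (square), with the sum of the 2 single mutants as a black bar and wild type at 0. Rows are ordered by departure, from RCK1 at the top to SPG4 at the bottom; in 39 of 40 rows the circle lies left of the triangle.

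The size of these departures depends on the scale on which effects are added, and the sign of the list's median did not. When the excess over wild type in CPM was added instead of the log2 ratios, the median of the list relative to all features was -1.18 instead of -1.73, and 25 of the 40 genes were at -1 or less. SPG4 was then at -1.82, DDR2 at -1.45, HSP26 at -1.497, SRX1 at -1.41, RGI1 at -1.67 and FMP45, an eisosome-associated membrane protein, at -1.40 instead of -2.08. The 24 other coding genes with a sum of 3 or more that averaged at least 100 counts, none of them 0, had a median departure of -1.75 at a median sum of 3.44. For the 21 list members in that range, to which the minimum of 100 counts was not applied, it was -2.33 at a median sum of 4.30. The transcripts of the factors themselves, looked at after the list's values were seen, departed little: MSN2 by 0.06 (-0.14 to 0.25) and MSN4 by -0.01 (-0.18 to 0.15).

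Neighbouring stress groups departed in the same direction by less. Trehalose and glycogen genes had a median departure of -0.78, with 9 of 20 at -1 or less, against 4.07% of all features, and median ratios over wild type of 0.50 in hmo1Δ;top2-1, 1.25 in hmo1Δ and 0.01 in top2-1. GPH1, glycogen phosphorylase, had 488 CPM in hmo1Δ;top2-1, 1565 in hmo1Δ, 238 in top2-1 and 181 in wild type, a departure of -2.08. GSY2, the main glycogen synthase, had 185 CPM in hmo1Δ;top2-1, 430.0 in hmo1Δ, 121 in top2-1 and 99.8 in wild type, a departure of -1.49. The order hmo1Δ, double mutant, top2-1, wild type, from high to low, held in 10 of the 20 genes. It did not hold for GDB1, the glycogen debranching enzyme, with 156 CPM in hmo1Δ;top2-1, 358 in hmo1Δ, 177 in top2-1 and 109 in wild type. Oxidative stress enzymes had a median of -0.55 and 5 of 20 at -1 or less, against 4.07% of all features, among them the peroxiredoxins TSA2 (-1.91) and AHP1 (-1.15) and the glutathione peroxidase GPX1 (-1.13). The median sum of the single mutants was 1.08 for trehalose and glycogen genes and 1.30 for oxidative stress enzymes. All features with a sum from 1 to 2 had a median departure of -0.67, with 19.5% at -1 or less. The trehalose and glycogen median lay below that value, and the oxidative stress median did not.

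The heat shock chaperones were below wild type in the double mutant in 15 of 20 cases. Hsp90, Hsp100 and small heat shock proteins had a median departure of -0.57, with 5 of 20 at -1 or less, against 4.07% of all features, and their median ratios over wild type were -0.35 in hmo1Δ;top2-1, 0.00 in hmo1Δ and -0.12 in top2-1. HSP104, the disaggregase of the cytosol, had 1922 CPM in hmo1Δ;top2-1, 4582 in hmo1Δ, 2126 in top2-1 and 2386 in wild type, a departure of -1.09. HSP78, its mitochondrial relative, had 403 CPM in hmo1Δ;top2-1, 1004 in hmo1Δ, 846 in top2-1 and 917 in wild type, a departure of -1.20. Both were above wild type in hmo1Δ and below it in the double mutant. The other 3 at -1 or less were at or above wild type in the double mutant: HSP26, which is also on the Msn2/4 list, at a log2 ratio of 2.43, HSP31, a chaperone and methylglyoxalase, at 2.40, and HSP42, a small heat shock protein, at 0.05. Of the Hsp70 system 3 of 20 were at -1 or less, against 4.07% of all features: SSA1 (-1.16), SSE2 (-1.16) and SSA3 (-1.15), SSA1 with 2232 CPM in hmo1Δ;top2-1, 5400.0 in hmo1Δ, 3908 in top2-1 and 4224 in wild type. SSA1 is nearly identical to SSA2, and reads shared between such copies could be split by the counting.

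Phosphate regulon genes were lower in the double mutant than in hmo1Δ in 14 of 15 cases; 13 were above wild type in hmo1Δ, and 6 in the double mutant. These genes, which take up and scavenge phosphate under the factor Pho4, had a median departure of -0.71, with 4 of 15 at -1 or less, against 4.07% of all features. PHO5, the secreted acid phosphatase (YBR093C, chromosome II, bases 429548 to 430951), had 47.0 CPM in hmo1Δ;top2-1, 178 in hmo1Δ, 75.5 in top2-1 and 69.5 in wild type, a departure of -2.04 (-2.29 to -1.78). PHO89, the sodium-phosphate cotransporter, had 23.9 CPM in hmo1Δ;top2-1, 76.6 in hmo1Δ, 45.0 in top2-1 and 34.1 in wild type, a departure of -2.07 (-2.43 to -1.71). For both, the double mutant had the lowest of the 4 levels and hmo1Δ the highest. SPL2, a regulator of phosphate transport, departed by -1.32, with 78.9 CPM in hmo1Δ;top2-1 and 68.8 in wild type, and GIT1, a glycerophosphoinositol permease, by -1.12. INO1, inositol-3-phosphate synthase and no member of this list, had the same order at its ends, with 46.7 CPM in hmo1Δ;top2-1, 239 in hmo1Δ, 98.5 in top2-1 and 183 in wild type, a departure of -1.46 (-1.67 to -1.24).

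**Figure D3:**
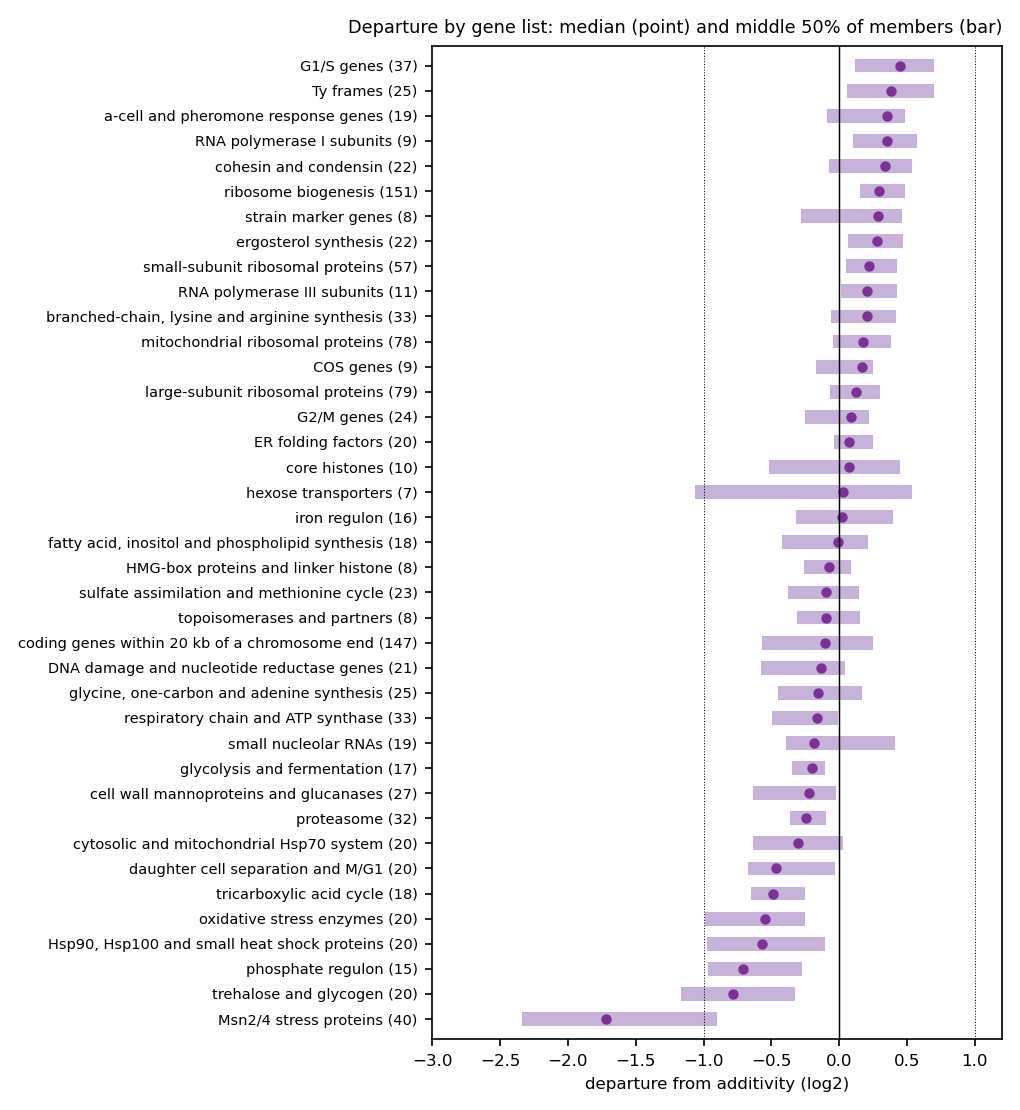
For each gene list of at least 5 measured members (number in parentheses), the point is the median departure from additivity and the bar spans the middle 50% of members, on a log2 axis with dotted lines at -1 and +1. The Msn2/4 stress proteins stand lowest, at a median of -1.72, and the G1/S genes highest, at 0.45.

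Genes of the G1/S transition, which the SBF and MBF factors switch on before DNA replication, had the most positive median among lists of at least 5 measured members at 0.45, with 7 of 37 at +1 or more, against 2.11% of all features, and none at -1 or less. Their median ratios over wild type were -0.45 in hmo1Δ;top2-1, -0.48 in hmo1Δ and -0.32 in top2-1. Of the 37, 30 were below wild type in both single mutants, and the double mutant was no lower than hmo1Δ in the median (0.06). CLN2, a G1 cyclin (YPL256C, chromosome XVI, bases 64977 to 66614), had 63.1 CPM in hmo1Δ;top2-1, 58.2 in hmo1Δ, 56.8 in top2-1 and 148 in wild type, a departure of 1.49 (1.23 to 1.75). All 3 mutant strains had a closely similar CLN2 level, more than 2-fold below wild type. RNR1, the large subunit of ribonucleotide reductase, had 154 CPM in hmo1Δ;top2-1, 121 in hmo1Δ, 122 in top2-1 and 233 in wild type, a departure of 1.28.

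TOS4, a forkhead-associated protein of the G1/S programme, had 34.1 CPM in hmo1Δ;top2-1, 20.0 in hmo1Δ, 53.2 in top2-1 and 104 in wild type, a departure of 1.72 (1.36 to 2.08). SVS1, a cell wall protein gene, had 39.5 CPM in hmo1Δ;top2-1, 21.5 in hmo1Δ, 57.9 in top2-1 and 116 in wild type, a departure of 1.87 (1.53 to 2.21). In these 2 genes the double mutant lay between hmo1Δ and top2-1, below the wild type. TOS6, a cell wall mannoprotein (1.75), PCL1, a cyclin of the Pho85 kinase (2.27), and POL1, the catalytic subunit of DNA polymerase alpha (1.16), were the other members at +1 or more. G2/M genes had a median departure of 0.09 and none of 24 past 1 in size, with median ratios of -0.61 in hmo1Δ;top2-1, -0.44 in hmo1Δ and -0.13 in top2-1.

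**Figure D4:**
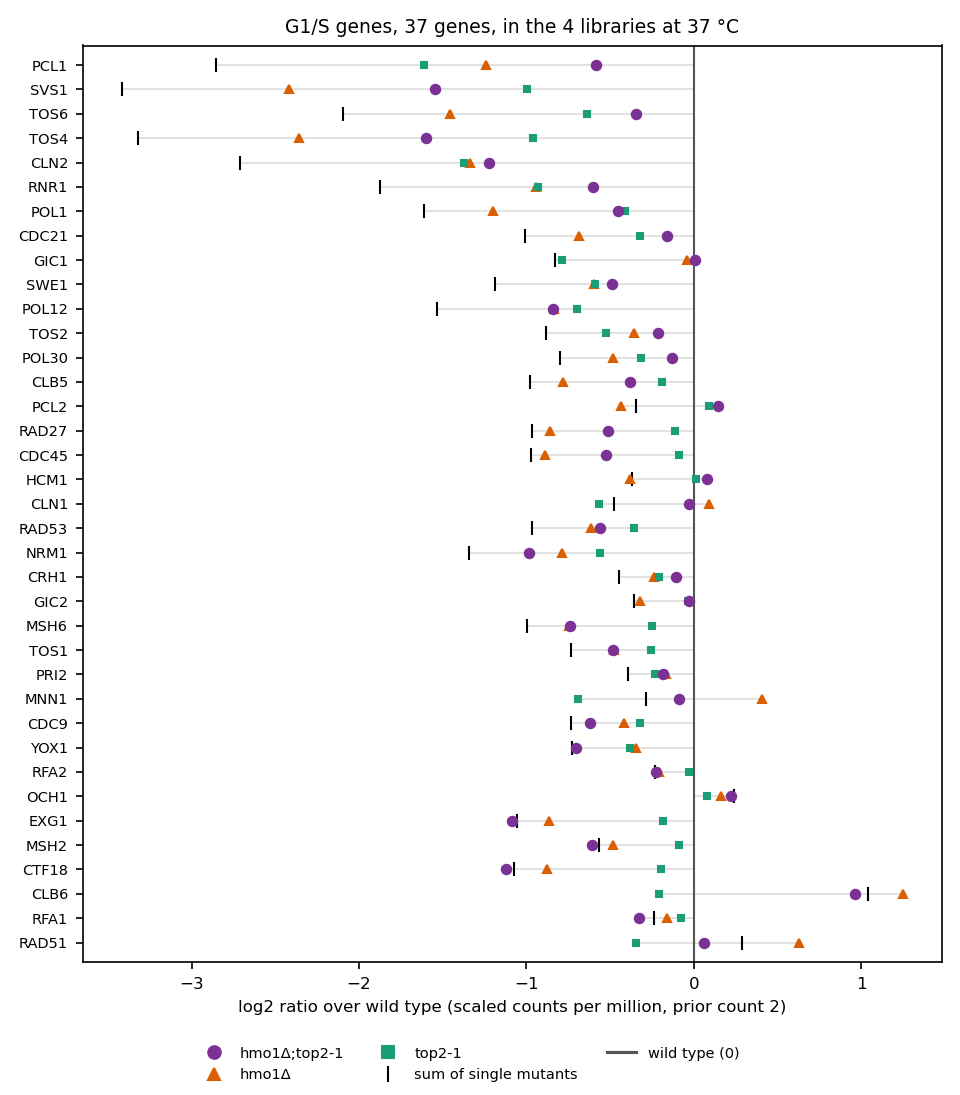
Each row is 1 of the 37 G1/S genes, on the log2 ratio over wild type for hmo1Δ;top2-1 (circle), hmo1Δ (triangle) and top2-1 (square), with the sum of the single mutants as a black bar and wild type at 0. Rows are ordered by departure, from PCL1 at the top; in the 7 uppermost rows the circle lies at least 1 unit to the right of the bar.

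Other coding genes with a high departure were mostly lower in hmo1Δ than in the double mutant. AAH1, adenine deaminase, had 148 CPM in hmo1Δ;top2-1, 42.9 in hmo1Δ, 151 in top2-1 and 112 in wild type, a departure of 1.35 (1.11 to 1.59), or 0.86 when effects were added in CPM. Here hmo1Δ alone was low. SRL1, a mannoprotein of the cell wall, had 172 CPM in hmo1Δ;top2-1, 97.9 in hmo1Δ, 156 in top2-1 and 256 in wild type, a departure of 1.52. SPC97, of the microtubule-nucleating gamma-tubulin complex, departed by 1.59, AAC3, a mitochondrial ADP/ATP carrier, by 1.44, AZF1, a zinc-finger transcription factor, by 1.43, and MTC7 by 1.37. CHA1, a serine deaminase (1.36), CDD1, cytidine deaminase (1.36), DUR12, urea amidolyase (1.34), GEX2, a glutathione exchanger (1.32), and YBL071C (1.54) complete the 15 highest with SVS1, TOS6, TOS4 and CLN2.

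Growth genes departed upward by small amounts and widely. Of 151 ribosome biogenesis genes, 138 had a positive departure, with a median of 0.29 and 1 (FYV7, 1.06) at +1 or more. Their median ratios over wild type were -0.26 in hmo1Δ;top2-1, -0.58 in hmo1Δ and 0.00 in top2-1, and in 136 of the 151 the double mutant stood above hmo1Δ. DBP10, an RNA helicase of the large subunit pathway, had 106 CPM in hmo1Δ;top2-1, 74.9 in hmo1Δ, 131 in top2-1 and 185 in wild type, a departure of 0.99. Among all features 2.11% were at +1 or more, so the group is marked by a common small shift and not by genes past that size. Relative to all features the median was 0.28. Ribosomal protein genes, the best-known Hmo1 targets, had medians of 0.12 for 79 of the large subunit and 0.22 for 57 of the small subunit, with 1 of the 136 at +1 or more, RPL18B (1.03). RNA polymerase I subunits had a median of 0.35 with 8 of 9 positive, and mitochondrial ribosomal proteins 0.18. Cohesin and condensin genes had a median of 0.34, with MCD1, the cohesin kleisin (1.15), and PDS5, a cohesin regulator (1.10), past +1; MCD1 had 44.3 CPM in hmo1Δ;top2-1, 29.3 in hmo1Δ, 60.6 in top2-1 and 89.2 in wild type.

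Some groups far from wild type in the double mutant had a median departure near 0. Folding factors of the endoplasmic reticulum (ER) had a median ratio over wild type of -0.99 in hmo1Δ;top2-1, -1.25 in hmo1Δ and 0.04 in top2-1, and a median departure of 0.07. All 20 were lower in the double mutant than in wild type, 10 of them at least 2-fold, against 3.26% of all features, and none departed by 1 in either direction. Smaller departures were present, with 2 of the 20 counting intervals below 0 and 7 above it. These intervals narrow as counts rise, and no share over all features is set beside them. KAR2, the Hsp70 of the ER lumen, had 1531 CPM in hmo1Δ;top2-1, 1920 in hmo1Δ, 5302 in top2-1 and 6573 in wild type, a departure of -0.02 (-0.06 to 0.02). SIL1, its nucleotide exchange factor, had 108 CPM in hmo1Δ;top2-1, 76.8 in hmo1Δ, 505 in top2-1 and 494 in wild type, a departure of 0.46 (0.28 to 0.63). PDI1, protein disulfide isomerase, had 1370.0 CPM in hmo1Δ;top2-1, 1344 in hmo1Δ, 3422 in top2-1 and 3699.8 in wild type. In these genes the level followed the HMO1 genotype, with the top2-1 library near wild type. HAC1, whose product drives the unfolded protein response, departed by 0.67, with 628 CPM in hmo1Δ;top2-1, 485 in hmo1Δ, 729 in top2-1 and 894 in wild type.

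Core histone genes had a median near additivity, but members departed in both directions. Their median ratio over wild type was 1.11 in hmo1Δ;top2-1, 0.68 in hmo1Δ and 0.08 in top2-1, and 6 of 10 were at least 2-fold higher in the double mutant, against 4.11% of all features. The median departure was 0.07, and members ran from -0.72 for HTA1 to 0.88 for HTB2. Of the 10 counting intervals, 3 lay below 0 and 4 above it, with no share over all features set beside them. HTA1 had 517 CPM in hmo1Δ;top2-1, 858 in hmo1Δ, 235 in top2-1 and 237 in wild type. HTB2 had 265 CPM in hmo1Δ;top2-1, 169.5 in hmo1Δ, 95.2 in top2-1 and 112 in wild type. The gene copies of each histone are near-identical in parts, so how reads were divided between them is uncertain.

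**Figure D5:**
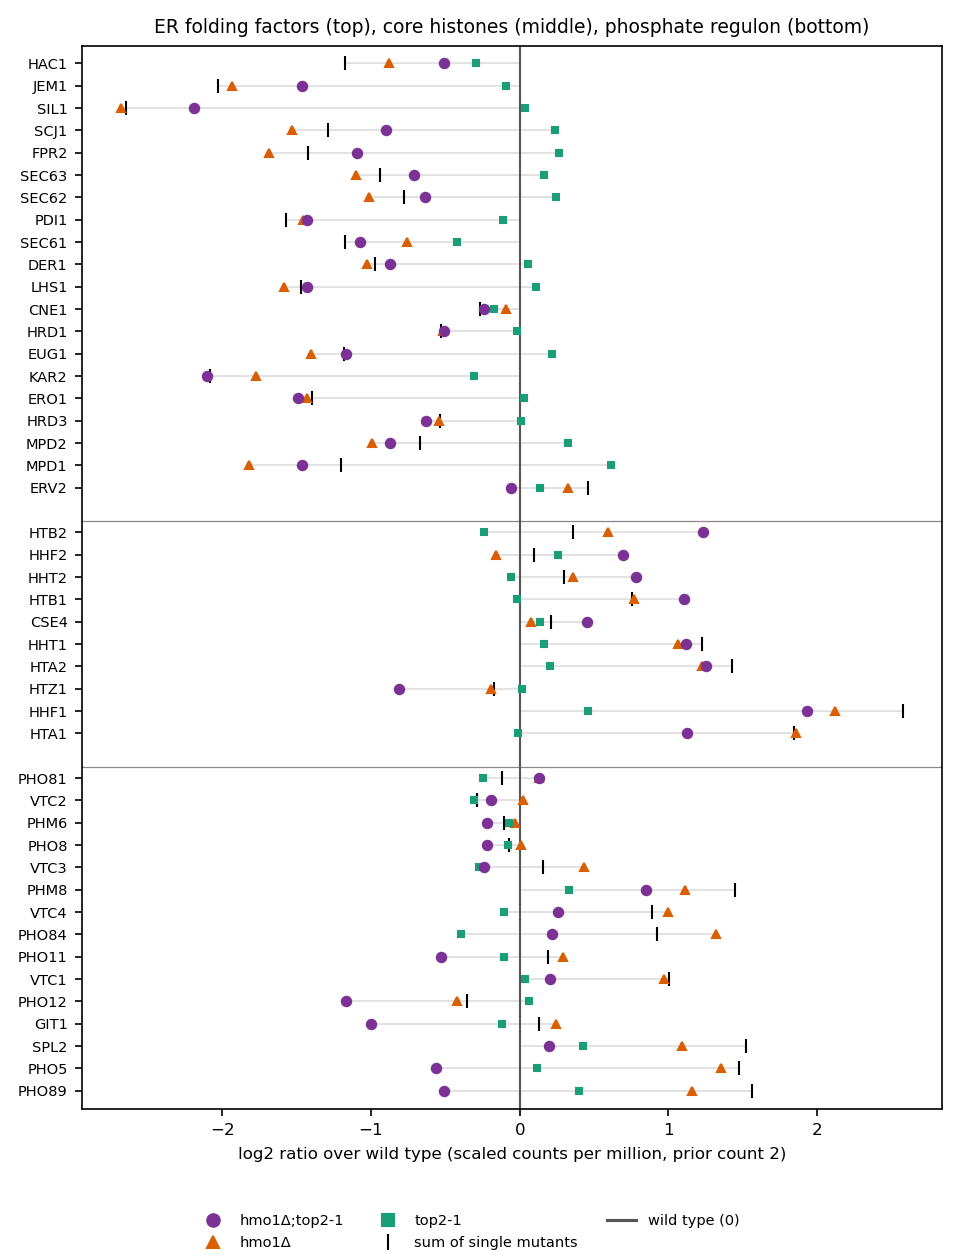
Rows are 20 ER folding factors, 10 core histone genes and 15 phosphate regulon genes, each block ordered by departure, on the log2 ratio over wild type for hmo1Δ;top2-1 (circle), hmo1Δ (triangle) and top2-1 (square), with the sum of the single mutants as a black bar and wild type at 0. In the upper block circles lie near the bars and left of 0, while PHO5 and PHO89 at the bottom have circles left of 0 and bars right of 1.

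Genes for synthesis of glycine, one-carbon units and adenine were mostly higher in the double mutant than in wild type, with a median near additivity. The median ratio over wild type was 0.72 in hmo1Δ;top2-1, 0.71 in hmo1Δ and 0.14 in top2-1, with 9 of 25 at least 2-fold higher in the double mutant, against 4.11% of all features, and a median departure of -0.15. Members departed in both directions, with 13 of the 25 counting intervals below 0 and 6 above it. Such intervals narrow as counts rise, and this list had a median mean count of 1926, against 517.8 for coding genes. No share over all features is set beside these interval counts. At -1 or less there were 2 of 25, against 4.07% of all features. SHM2, the cytosolic serine hydroxymethyltransferase, had 2009.7 CPM in hmo1Δ;top2-1, 1856 in hmo1Δ, 440.1 in top2-1 and 289 in wild type, a departure of -0.49 that became 0.00 when excess over wild type was added in CPM. SER3, the first enzyme of serine synthesis, was the furthest from additivity of the list at -1.37. Proteasome genes, near wild type in every strain, had 31 of 32 departures negative with a median of -0.25, and none past 1. Tricarboxylic acid cycle genes had a median of -0.49; CIT1, citrate synthase, had 493 CPM in hmo1Δ;top2-1, 502 in hmo1Δ, 503 in top2-1 and 258 in wild type, so that each mutant stood near 2-fold over wild type and the departure was -0.99.

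Among the transcripts furthest above wild type in the double mutant, HXT6 and HXT7 need reading together, since these 2 hexose transporter genes are near-identical. HXT6 had 202 counts in hmo1Δ;top2-1, 936 in hmo1Δ, 1 in top2-1 and 0 in wild type, and HXT7 had 434 CPM in hmo1Δ;top2-1, 683 in hmo1Δ, 17.2 in top2-1 and 52.1 in wild type. Their fitted departures had opposite signs, -3.40 for HXT6 and 0.92 for HXT7, and that of HXT7 was -0.58 when excess over wild type was added in CPM. Summed, the pair had 455 CPM in hmo1Δ;top2-1, 832 in hmo1Δ, 17.4 in top2-1 and 52.1 in wild type, a departure of 0.70 (0.36 to 1.03). The HXT6 value alone rests on 1 and 0 counts in 2 of the libraries, and a fitted value of that kind depends on the prior count.

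Other transcripts high in the double mutant over wild type were FMP45 (3.15), SNZ1, of vitamin B6 synthesis (2.93), NQM1, a transaldolase (2.76), TFS1, a carboxypeptidase Y inhibitor (2.73), and DPI8 (2.68). DPI8 had 36.6 CPM in hmo1Δ;top2-1, 18.1 in hmo1Δ, 23.9 in top2-1 and 5.44 in wild type, the highest level being in the double mutant. Of the 243 features 2-fold higher in the double mutant, 79 had a departure of -1 or less and 3 of +1 or more, with a median ratio of 1.32 against a median sum of 1.99. For the 193 features 2-fold lower, the median ratio was -1.28 against a median sum of -1.33, and 164 departed by less than 1. Both sets were picked on the double mutant's ratio, itself a term of the departure, so the higher and lower sets cannot be compared in this. Grouped by the sum instead, the median departure was 0.53 at a sum from -2 to -1 and -0.67 at a sum from 1 to 2. NDJ1, a meiotic telomere protein, had 3.42 CPM in hmo1Δ;top2-1, 3.97 in hmo1Δ, 30.4 in top2-1 and 35.1 in wild type, a departure of 0.00 (-0.78 to 0.79). FAA4, a fatty acyl-CoA synthetase, had 78.7 CPM in hmo1Δ;top2-1, 113 in hmo1Δ, 211 in top2-1 and 402 in wild type, a departure of 0.40. MCD4, of GPI anchor synthesis, was at -2.30 over wild type, ATG17, an autophagy scaffold, at -2.19, ULI1 at -2.38 and INA1 at -2.13. YDR209C, at -2.16, overlaps CPP2 by 228 bases, and no source used here states whether the counting kept the strands apart. RRT5 departed further, with 58 counts in hmo1Δ;top2-1, 39 in hmo1Δ, 474 in top2-1 and 179.87 in wild type, the same scaled level in both hmo1Δ strains and a departure of -1.12, or -2.99 when effects were added in CPM.

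Departures were set beside where Hmo1 and Top2 were found in the chromatin experiments, each of 1 library. Of 5523 nuclear coding genes, 2485 had an Hmo1 peak within 500 bases upstream of the coding start in the list from the strain with the control plasmid, whose genotype label is Hmo1tag while its title also names top2-1 and top1. Genes with such a peak had a median departure of -0.03, with 5.15% at -1 or less, and the 3038 without had a median of 0.04, with 2.24% at -1 or less. At +1 or more the shares were 1.33% with a peak and 1.12% without. The higher share at -1 or less was present in each quintile of mean count, narrowest in the lowest, at 6.98% with a peak against 5.30% without. In the highest quintile it was 46 of 708 genes with a peak against 10 of 397 without. Of the 160 coding genes at -1 or less that averaged at least 100 counts, 116 (72.5%) had a promoter peak, and of the 42 at +1 or more 23 (54.8%), against 2333 (45.4%) of all 5141 coding genes with such a mean. Peaks were most frequent in the highest quintile, where 708 genes held one, but did not rise steadily with counts. The other quintiles had 444, 383, 425 and 525 such genes, from the lowest up. Msn2/4 genes had one in 28 of 40 cases and ribosomal protein genes in 64 of 79 and 46 of 57, although the ribosomal protein genes barely departed.

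Top2 anchors, the ends of DNA segments joined in the Top2 chromatin interaction data, lay in the coding model of 2043 genes. Of these, 2.30% had a departure of -1 or less, against 4.28% of the 3480 genes without an anchor. For anchors in the 500 bases before the start the shares were closer, at 3.25% with an anchor and 3.66% without. Genes with an anchor in the coding model were longer, with a median coding length of 1533 bases against 1096.5, and the share at -1 or less differed with length too. Among coding genes averaging at least 100 counts, it was 5.04% in the shortest quintile (median 510 bases) and 1.07% in the longest (median 2877 bases). The quintiles between had 3.31%, 2.33% and 3.80%, so the fall was not steady. The part of length in the Top2 difference was not tested. The median departure hardly moved with length, at 0.01 in the shortest quintile and 0.05 in the longest, whereas the ratio over wild type did, at 0.19 and -0.18. Of 147 coding genes lying 20 kb or less from a chromosome end, 7.48% were at -1 or less and 4.08% at +1 or more, against 3.44% and 1.13% of the genes farther in. Genes near the ends also had lower counts, with a median mean count of 208.6 against 527.9. In the lowest quintile of mean count over all coding genes, 5.97% were at -1 or less and 3.89% at +1 or more. The part of depth in the difference at the ends was not tested.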

How the data were processed

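Per the labels' protocols, ribosomal RNA was removed and poly-A RNA selected before strand-specific libraries were made for an Ion Proton sequencer, from log-phase cells after 60 min at 37 °C. The authors deposited RSEM expected counts and TPM per gene, made with STAR and RSEM per the submitters' processing notes, on R64; no source used here states the strand setting of the counting. The Hmo1 peak lists deposited by the authors carry a score of unstated scale, not used here beyond the peaks' positions, and the deposited Top2 file counts paired-end tags for each joined pair of anchors. No source used here names the peak caller.

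Features with a mean of at least 20 expected counts over the 4 libraries were kept, scaled with TMM factors (edgeR 4.0.16, R 4.3.3) and turned into log2 CPM with a prior count of 2. The expected counts were not rounded. Counting intervals of ratios are exact (Clopper-Pearson) 95% intervals and those of the departure use the delta method; both cover counting error only. Library totals ran from 4752471 to 9274003 counts. Against a library whose estimate rounds to 0 counts, the fold was taken against a floor of 3 counts. The departure script was tested on simulated counts.

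Names, coordinates and coding status came from RefSeq R64; 320 of the kept features had no match and keep the files' identifiers. The genes named are the 15 highest and 15 lowest departures and the 10 highest and 10 lowest ratios over wild type among nuclear coding genes averaging at least 100 counts, up to 4 members of each of 42 lists with the largest departure in the direction of the list's median, the fixed genes HMO1, TOP2, TOP1 and TRP1, and features with opposite 2-fold hmo1Δ effects in the 2 TOP2 backgrounds. HSP12, CTT1, MSN2, MSN4, KAR2, PDI1, HTA1, RNR1, POL1, SIP18, HSP42 and the exceptions within lists were named after their values were seen. The members and lists were chosen with earlier results of these data known. Lists are described by counts and medians, without tests. Alternatives were DESeq2 1.42.0 size factors, library totals, TPM with a pseudocount of 1, TMM over 5 libraries, no filter, a minimum mean of 100, nuclear coding genes alone, a prior count of 0.5, additivity on the linear scale and, for peaks, a window of 250 bases or the TopA list. The TopA list differs from the main list in genotype label and plasmid, so it is no repeat of the same strain.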

Additional observations from a re-analysis of the deposited data

Results flagged for a closer look

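In 7 features the hmo1Δ effect was at least 2-fold in opposite directions in top2-1 and in wild-type cells, each judged from 1 library a strain, so the difference was not tested. All have a mean below 100 counts. PCL1 (departure 2.2681) had 156 counts in hmo1Δ;top2-1, 66 in hmo1Δ, 48 in top2-1 and 125 in wild type. BUD25 (-3.9008), which overlaps HEM14 by 489 bases and FAA2 by 160, had 13.8 counts in hmo1Δ;top2-1, 65.2 in hmo1Δ, 45.5 in top2-1 and 14.3 in wild type. MBB1 (-2.2989) had 47 counts in hmo1Δ;top2-1, 60 in hmo1Δ, 64 in top2-1 and 19 in wild type. FDH2 (-2.2166) had 28 in hmo1Δ;top2-1, 32 in hmo1Δ, 41 in top2-1 and 11 in wild type. YER067C-A (-7.1858) had 0.02 estimated counts in hmo1Δ;top2-1, 31.4 in hmo1Δ, 115.57 in top2-1 and 10.2 in wild type. YIR023C-A (3.1436) had 90.6 in hmo1Δ;top2-1, 17.45 in hmo1Δ, 21.2 in top2-1 and 50.4 in wild type. YBL006W-A (5.8947) had 42.0 in hmo1Δ;top2-1, 13.6 in hmo1Δ, 0 in top2-1 and 44.2 in wild type. The fitted values of YER067C-A and YBL006W-A depend on the prior count, since 1 library of each is at or near 0. YER067C-A, YIR023C-A and YBL006W-A had no match in the reference and so no coordinates. Their overlaps with other genes could not be looked up, and reads shared with such genes were not tested for.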

How the results depend on the processing

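No paired analysis was possible because each strain has 1 library; leaving out a replicate was not possible either. The 5 lists of at least 5 members whose median lay 0.5 or more from that of all features kept their direction under each of the 9 alternatives: -1.73 to -1.18 for Msn2/4 genes, -0.80 to -0.77 for trehalose and glycogen, -0.64 to -0.49 for oxidative stress, -0.58 to -0.55 for Hsp90 and Hsp100, and -0.74 to -0.67 for phosphate. A change of library scaling shifts the departures of all features almost alike. Those alternatives could therefore hardly move a list relative to all features, and they are no check of it. The Msn2/4 value of -1.18 came from the linear scale, which changes how effects are added. The number of features 2-fold higher in hmo1Δ;top2-1 was 147 with TPM and 384 without a count filter. Departures of -1 or less numbered 156 with TPM and 389 without a filter. Departures of +1 or more numbered 259 without a filter, 54 with the minimum mean raised to 100 and 70 for nuclear coding genes alone, where 23.3% and 26.4% of departures past 1 in size were positive; on the linear scale 45.8% were. DPI8 went to 0.0001 on the linear scale, where HXT7 was at -0.58, SNZ1 at 0.17, NQM1 at -0.77, TFS1 at -1.38 and RRT5 at -2.99. The difference in median departure between genes with and without a promoter Hmo1 peak ran from -0.077 to -0.064, and rescaling could hardly move it either. Depth limits single genes: for the 12 features whose estimate rounds to 0 counts in a library, the fitted departure depends on the prior count.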

Other observations

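Cell wall genes divided around the stress group. PIR3, an O-glycosylated wall protein, had 517 CPM in hmo1Δ;top2-1, 1287 in hmo1Δ, 292 in top2-1 and 166 in wild type, a departure of -2.13, and PST1, a wall integrity reporter, had 1446 in hmo1Δ;top2-1, 2369 in hmo1Δ, 509 in top2-1 and 390.0 in wild type, a departure of -1.10. Of 27 wall genes 4 were at -1 or less and 1 at +1 or more, against 4.07% and 2.11% of all features. RME1, a repressor of meiosis expressed in G1, departed by -1.25. LYS9, of lysine synthesis, departed by 1.31, with 264 CPM in hmo1Δ;top2-1, 139 in hmo1Δ, 142 in top2-1 and 186 in wild type. Ergosterol synthesis genes had a median of 0.28 and 19 of 22 positive. Of 84 Ty frames 25 passed the filter, with a median ratio over wild type of -1.47 in hmo1Δ;top2-1, -1.90 in hmo1Δ and 0.00 in top2-1 and a median departure of 0.38; reads are shared between their copies.

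A pair of features had nearly all of their counts in the double mutant library. YGR115C had 94.3 counts in hmo1Δ;top2-1 and 0 in each of the other 3 libraries, and YDL086C-A had 232 in hmo1Δ;top2-1, 0.03 in hmo1Δ, 16.02 in top2-1 and 0.3 in wild type. They were picked after their values were seen, and whether reads of overlapping genes were assigned to them was not tested.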
